A study of Mus musculus with 6 samples.

Results

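The citric acid cycle enzymes described here are 9 genes, Cs, Idh2, Idh3a, Idh3b, Ogdh, Dlst, Suclg1, Fh1 and Mdh2, taken by their symbols from the 23473 RefSeq rows of a table of bulk RNA-seq values. The table compares tumor endothelial cells (TECs) from Lewis lung carcinoma (LLC, a transplanted mouse lung cancer line) of 3 NICeCA mice with those of 3 control (Ctrl) mice, all C57BL/6 and labelled as 8 weeks old. NICeCA mice carry Cdh5 cre ERT2 and a Rosa26 cassette in which a floxed stop precedes the Notch1 intracellular domain, so that tamoxifen, given on 5 days before the tumor cells, turns on Notch signaling in cells that express Cdh5. The labels give the Ctrl genotype only as wild type and do not say whether Ctrl mice received tamoxifen. TECs were captured on beads coated against CD31, an endothelial surface protein that some leukocytes and platelets also carry. The study's methods speak of pairs of NICeCA and Ctrl mice, but no label ties a library to its pair, so the pairing could not be used. They place collection on day 14 after inoculation and the labels on differing days.

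The cycle runs in the mitochondrial matrix, where acetyl groups from sugars, fats and amino acids are oxidised to carbon dioxide and the electrons pass to the respiratory chain. Its intermediates also leave it as building blocks, and glutamine refills it at alpha-ketoglutarate. Endothelial cells draw much of their ATP from glycolysis, and in them the cycle is known more for supplying aspartate and nucleotide precursors during vessel growth. Notch signaling in its canonical form acts on transcription, through the intracellular domain bound to the DNA-binding protein RBPJ.

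Values are RPKM, reads scaled to the length of the gene model and to the total of the library, and can therefore be compared between genes. Reads on RefSeq rows numbered 27793301 to 30769916 per library, and each of the 9 enzymes had between 548 and 4644 reads in every library, so counting error alone was at most 4.27% of a value. All 9 passed the filter for testing, a mean of at least 1 RPKM over the 6 libraries. Rn45s, a ribosomal RNA row, held 3.86%, 6.4% and 1.87% of RefSeq reads in Ctrl and 0.825%, 1.06% and 1.92% in NICeCA libraries. Its part in the scaling of the libraries was not tested. Differences were tested with limma on log2(RPKM + 1), and a gene was called at a Benjamini-Hochberg adjusted p under 0.05 over all 12320 genes tested. The scale understates the change of low genes.

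Among targets of Notch, Hey1 was at 5.55, 2.69 and 2.78 RPKM in Ctrl and 6.05, 10.6 and 9.91 RPKM in NICeCA libraries (limma adjusted p = 0.041), Nrarp at 16.5, 6.34 and 7.59 against 19.3, 21.1 and 21.0 RPKM (0.052), and Hes1 at 13.1, 7.70 and 8.87 against 8.33, 7.85 and 9.46 RPKM (0.56). Endothelial markers were present in every library, but they were not the most abundant. All 12 tested had positive log2 fold changes (median 0.66), and 1, Flt1, was called higher (limma adjusted p = 0.044). For 2 of them, every NICeCA library lay above every Ctrl library. The 12 endothelial markers summed to 225 to 584 RPKM in Ctrl libraries and 491 to 638 RPKM in NICeCA libraries, against 7157 to 10211 RPKM and 5513 to 9461 RPKM for 12 macrophage markers, of which 2 (Cd14 and Cd68) were called higher and 0 lower. Lyz2, a lysozyme gene of macrophages and neutrophils, alone held 2611 to 5555 RPKM. The 11 neutrophil markers in the table summed to 145 to 303 RPKM in Ctrl and 652 to 1724 RPKM in NICeCA libraries, with 7 of 9 tested genes called higher (limma). Fibroblast markers summed to 411 to 671 RPKM in Ctrl and 198 to 385 RPKM in NICeCA libraries, with Col3a1 alone at 270 to 454 and 103 to 226 RPKM. Of 9 tested, 4 were called lower and 1, Postn, higher, and their mean log2 level overlapped between the groups (3.82, 4.37 and 4.18 against 3.58, 3.50 and 4.18). Pericyte and smooth muscle markers summed to 38.8 to 57.4 and 79.9 to 151 RPKM, T and NK lymphocyte markers to 43.8 to 62.4 and 36.9 to 54.4 RPKM, and epithelial markers to 6.71 to 12.8 and 6.32 to 8.61 RPKM, with 6 of the 8 epithelial genes below 1 RPKM in every library. Erythroid and platelet genes summed to 135 to 193 RPKM in Ctrl and 919 to 1135 RPKM in NICeCA libraries, of which the chemokine gene Pf4 made up 102 to 172 RPKM and 889 to 1126 RPKM. Of 5 tested, 1, Pf4, was called higher and 0 lower, and 3 had negative log2 fold changes. The mean log2 level of this list overlapped between the groups. All nucleated cell types in the fraction can carry the enzyme transcripts, so fewer cells of a type and less RNA per cell cannot be told apart in the values below.

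None of the 9 enzymes was called higher or lower in the NICeCA libraries, which hold a mixed fraction. Their log2 fold changes lay between -0.18 (Ogdh) and 0.17 (Mdh2), 5 positive and 4 negative, with a median of 0.05 beside -0.05 over all tested genes. Of all tested genes, 5.88% were called higher and 7.68% lower. The lowest limma adjusted p among the enzymes was 0.30, and all 9 of the 95% intervals of the difference held 0. These intervals, which are not adjusted for the number of genes, differed by gene, from 0.676-fold to 1.19-fold for Idh2, from 0.885-fold to 1.43-fold for Mdh2, from 0.923-fold to 1.36-fold for Idh3b and from 0.728-fold to 1.07-fold for Ogdh. For each gene, the values did not exclude changes within its own bounds, and no change was among these. The absolute log2 fold change of each enzyme was below the median of all tested genes (0.27), and the spread between replicates was below the median of all tested genes in 8 of the 9. By library, 1 of 9 enzymes (Idh3b) had all NICeCA libraries above all Ctrl libraries and 0 had them below. Over all tested genes, 16.5% were separated upward and 24.4% downward.

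**Figure D1:**
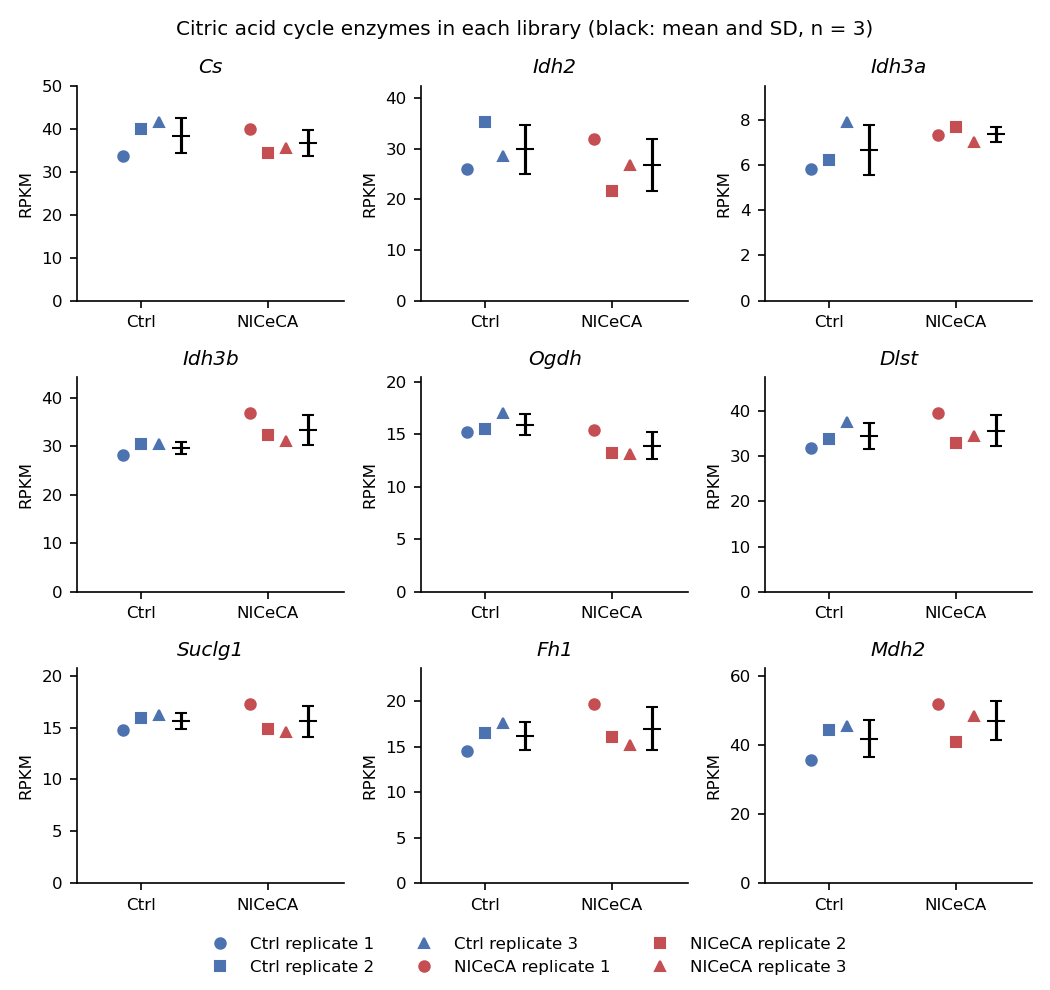
RPKM of each enzyme in the 3 Ctrl (blue) and 3 NICeCA (red) libraries, one marker shape per replicate number, with the mean and SD in black. The groups overlap in every panel but that of Idh3b, where the lowest NICeCA value (31.1 RPKM) lies above the highest Ctrl value (30.4 RPKM).

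The enzymes differed far more from each other than between the groups. Averaged over the 6 libraries, Mdh2 was the most abundant at 44.6 RPKM, followed by Cs (37.7), Dlst (35.0), Idh3b (31.6) and Idh2 (28.3), then Fh1 (16.6), Suclg1 (15.6) and Ogdh (14.9), with Idh3a last at 6.999 RPKM. From Mdh2 to Idh3a this was a 6.37-fold range of levels. Neighbours in this order had overlapping ranges over the 6 libraries except for the step from Idh2 to Fh1, where the lowest Idh2 value was 21.7 RPKM and the highest Fh1 value 19.7 RPKM, and the step from Ogdh to Idh3a, where the lowest Ogdh value was 13.2 RPKM and the highest Idh3a value 7.90 RPKM. Across the 6 libraries, the highest value of a gene exceeded its lowest by between 1.18-fold (Suclg1) and 1.62-fold (Idh2).

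Because RBPJ carries the Notch signal to DNA, the 250 bases before the start sites of the enzymes were searched for its core motif, TGGGAA on either strand. RefSeq (GRCm38.p6) gave 13 such windows for 8 of the 9 genes, 6 of them for alternative starts of Ogdh. The motif stood in 4 of the 13 windows, for Cs, Suclg1, Fh1 and the fifth start of Ogdh, and in 21.6% of all 32851 windows. It lay 152 bases before the start of Cs, 120 before that of Suclg1, 167 before that of Fh1 and 245 before the fifth start of Ogdh. The windows of Cs (chr10:128337477-128337726, plus strand) and Fh1 (chr1:175625636-175625885, minus strand) are shown as examples that hold the motif. They are printed in the direction of transcription, with the motif in capitals as its reverse complement TTCCCA.
Cs: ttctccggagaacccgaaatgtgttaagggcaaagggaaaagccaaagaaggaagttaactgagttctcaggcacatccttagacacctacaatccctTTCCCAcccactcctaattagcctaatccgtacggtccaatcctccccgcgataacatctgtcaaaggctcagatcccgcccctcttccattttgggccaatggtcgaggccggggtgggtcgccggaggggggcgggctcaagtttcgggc
Fh1: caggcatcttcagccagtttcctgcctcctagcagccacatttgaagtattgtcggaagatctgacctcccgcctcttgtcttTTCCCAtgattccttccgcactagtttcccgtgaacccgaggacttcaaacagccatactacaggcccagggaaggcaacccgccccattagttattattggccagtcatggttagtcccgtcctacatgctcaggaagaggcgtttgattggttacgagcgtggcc
The enzymes with the motif had log2 fold changes of -0.06 (Cs), -0.01 (Suclg1), 0.06 (Fh1) and -0.18 (Ogdh). Those with a window but no motif had -0.16 (Idh2), 0.16 (Idh3b), 0.05 (Dlst) and 0.17 (Mdh2). No enzyme was called with or without the motif, and a part of RBPJ was not tested. The MYC E box CACGTG, its own reverse complement, was found in 3 windows, all of Ogdh (6.02% of all windows), of which 2 overlap and share a site, so that there were 2 separate sites. The core GCGCATGC of the NRF1 motif was in 2 overlapping windows of Ogdh that share 1 site (2.26%), and the ETS motif CCGGAAGT in none (2.88%). Such matches describe letters and not binding.

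Cs encodes citrate synthase, which joins acetyl-CoA to oxaloacetate and so opens the cycle. The row lies on the plus strand of chromosome 10, 128337832 to 128362479 (GRCm38, as are all positions given here). Cs stood at 33.8, 40.1 and 41.8 RPKM in Ctrl replicates 1 to 3 and at 40.1, 34.5 and 35.6 RPKM in NICeCA replicates 1 to 3. The groups overlapped, with means of 38.5 ± 4.18 and 36.8 ± 2.97 RPKM (SD, n = 3 mice each). The log2 fold change was -0.06 (standard error, SE, 0.13 and adjusted p = 0.76 by limma).

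Isocitrate is oxidised to alpha-ketoglutarate by different enzymes: the NADP-dependent homodimer of Idh2, whose reaction can also run in reverse, and the NAD-dependent IDH3, built of subunits from Idh3a (catalytic), Idh3b and Idh3g. Idh2 (chromosome 7, 80094847 to 80115350, minus strand) was at 25.9, 35.3 and 28.5 RPKM in Ctrl and at 31.9, 21.7 and 26.8 RPKM in NICeCA libraries. It had the widest spread of the 9, and its values interleaved, with a log2 fold change of -0.16 (SE 0.18 and adjusted p = 0.55 by limma). Idh3a (chromosome 9, 54586511 to 54604662, plus strand) was at 5.84, 6.23 and 7.90 RPKM in Ctrl and at 7.33, 7.68 and 7.01 RPKM in NICeCA libraries. Ctrl replicate 3 exceeded every NICeCA library, and the log2 fold change of 0.13 was within the spread (SE 0.13 and adjusted p = 0.50 by limma). Idh3b (chromosome 2, 130279309 to 130284451, minus strand) was at 28.2, 30.4 and 30.4 RPKM in Ctrl and at 36.9, 32.3 and 31.1 RPKM in NICeCA libraries. These groups did not overlap, but the gap was small beside the spread among the NICeCA libraries (log2 fold change 0.16, SE 0.12 and adjusted p = 0.36 by limma). Idh3b meets the ribosome biogenesis gene Nop56 on the other strand, with 5 shared bases at their 3′ ends, and no source used here says whether reads were counted by strand. Idh3g, the remaining subunit, was at 28.6, 26.2 and 28.6 RPKM in Ctrl and 35.6, 26.8 and 26.8 RPKM in NICeCA libraries (log2 fold change 0.08, limma adjusted p = 0.71).

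Alpha-ketoglutarate is turned into succinyl-CoA by a complex of Ogdh, the thiamine-dependent E1 component, Dlst, the E2 core, and Dld, an E3 component shared with pyruvate dehydrogenase. Ogdh (chromosome 11, 6291597 to 6359094, plus strand) was at 15.2, 15.5 and 17.0 RPKM in Ctrl and at 15.4, 13.2 and 13.2 RPKM in NICeCA libraries. NICeCA replicates 2 and 3 were the lowest of the 6 while NICeCA replicate 1 lay among the Ctrl values, and the log2 fold change was -0.18 (SE 0.12 and adjusted p = 0.30 by limma). Dlst (chromosome 12, 85110833 to 85134091, plus strand) was at 31.8, 33.8 and 37.4 RPKM in Ctrl and at 39.5, 32.9 and 34.5 RPKM in NICeCA libraries. The groups overlapped, with a log2 fold change of 0.05 (SE 0.13 and adjusted p = 0.80 by limma). Dld had 10.8, 12.4 and 14.3 RPKM in Ctrl and 15.5, 16.2 and 13.9 RPKM in NICeCA libraries (log2 fold change 0.27, limma adjusted p = 0.19).

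Suclg1 encodes the alpha subunit of succinyl-CoA synthetase, which pairs with either the GTP-forming subunit of Suclg2 or the ATP-forming subunit of Sucla2. It lies on chromosome 6, 73248505 to 73276907, plus strand, and was at 14.8, 15.96 and 16.2 RPKM in Ctrl and 17.3, 14.9 and 14.6 RPKM in NICeCA libraries. Means were 15.6 ± 0.766 and 15.6 ± 1.45 RPKM (SD, n = 3), with a log2 fold change of -0.01 and an interval from -0.28 to 0.27 (limma adjusted p = 0.98). Its partners had log2 fold changes of opposite sign. Suclg2 was at 12.6 ± 1.56 and 10.7 ± 0.843 RPKM (log2 fold change -0.21, limma adjusted p = 0.27), and Sucla2 at 8.86 ± 1.03 and 11.1 ± 0.595 RPKM with separated groups (log2 fold change 0.30, limma adjusted p = 0.12).

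Fh1 encodes fumarase, which hydrates fumarate to malate, and Mdh2 the mitochondrial malate dehydrogenase, which returns malate to oxaloacetate and takes part in the malate-aspartate shuttle. Fh1 (chromosome 1, 175601378 to 175625635, minus strand) was at 14.5, 16.5 and 17.6 RPKM in Ctrl and at 19.7, 16.04 and 15.2 RPKM in NICeCA libraries. Both the highest and the next lowest value belonged to NICeCA libraries (log2 fold change 0.06, SE 0.14 and adjusted p = 0.78 by limma). Mdh2 (chromosome 5, 135778649 to 135790386, plus strand) was at 35.8, 44.5 and 45.5 RPKM in Ctrl and at 51.9, 41.0 and 48.6 RPKM in NICeCA libraries. NICeCA replicate 2 lay below 2 of the 3 Ctrl libraries, and the log2 fold change was 0.17 (SE 0.15 and adjusted p = 0.45 by limma).

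A list of 8 further genes of the cycle had 0 called by limma, 7 positive log2 fold changes and a median of 0.13. Over all tested genes, 5509 of 12320 were positive and the median was -0.05. The 4 subunits of succinate dehydrogenase, which is also complex II of the respiratory chain, had log2 fold changes of 0.09 (Sdha), 0.18 (Sdhb), 0.07 (Sdhc) and 0.34 (Sdhd). Sdhd, a membrane anchor, was at 41.2, 43.8 and 48.3 RPKM in Ctrl and 64.4, 54.3 and 51.7 RPKM in NICeCA libraries. Its groups were separated, and it had the lowest adjusted p of these enzymes (limma, 0.11).

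**Figure D2:**
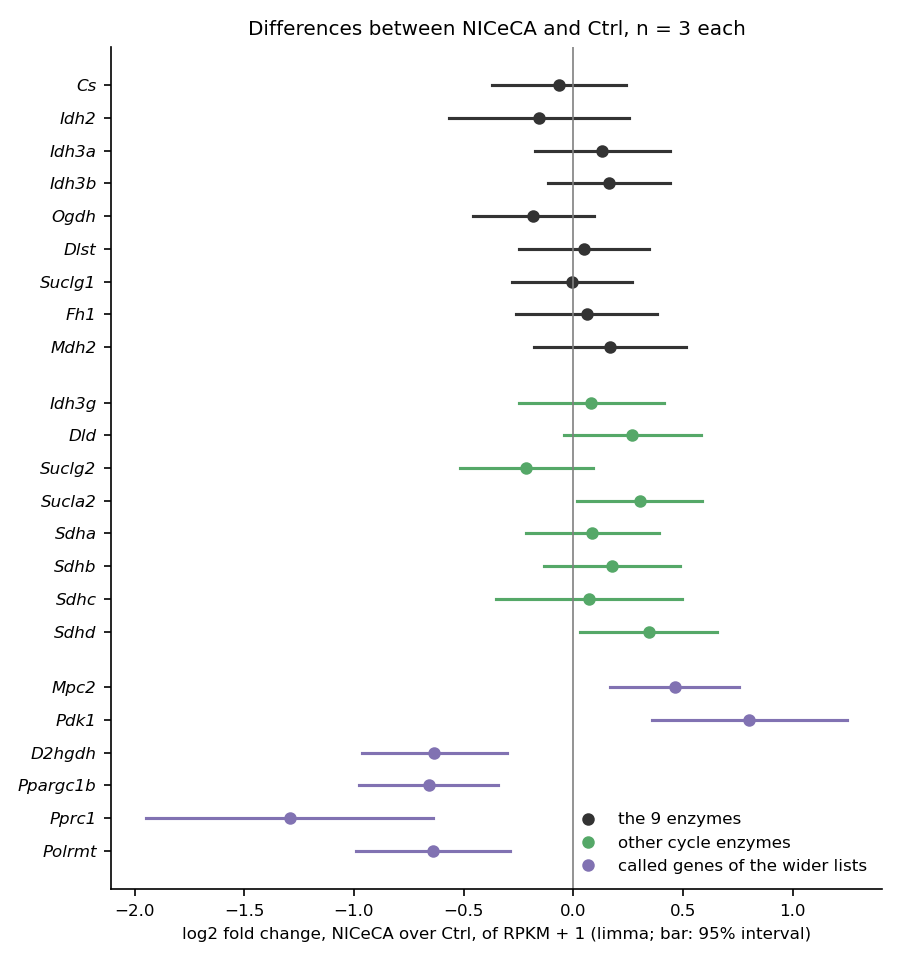
Log2 fold change of RPKM + 1 between NICeCA and Ctrl libraries with its 95% interval (limma, n = 3 each) for the 9 enzymes (black), 8 other genes of the cycle (green) and the called genes of the wider lists (purple). The black points lie between -0.18 and 0.17 with intervals across 0, and the purple points run from -1.29 (Pprc1) to 0.80 (Pdk1).

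The 6 wider lists held 6 called genes of 53 tested (11.3%), against 13.6% called in either direction over all tested genes, so the count is near the background. Among 12 tested genes of pyruvate entry, 2 were called higher and 0 lower (list median 0.19). Pdk1, a kinase that inhibits pyruvate dehydrogenase, rose from 9.45, 6.08 and 11.0 RPKM in Ctrl to 15.1, 15.7 and 16.5 RPKM in NICeCA libraries (log2 fold change 0.80, SE 0.19 and adjusted p = 0.039 by limma). Every NICeCA library lay above every Ctrl library for this gene. Mpc2, a subunit of the mitochondrial pyruvate carrier, rose from 20.4, 18.6 and 19.3 RPKM to 30.8, 26.5 and 24.5 RPKM (log2 fold change 0.46, SE 0.13 and adjusted p = 0.0495 by limma). That call stood at the threshold and held in only 2 of 16 alternatives.

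Of 9 tested regulators of mitochondrial biogenesis, 3 were called lower and 0 higher (median -0.06), where 7.68% of all tested genes were called lower. The count was 0 without Ctrl replicate 2, NICeCA replicate 1 or NICeCA replicate 2, under quantile normalization, without a filter and with an endothelial covariate. Pprc1, a serum-inducible coactivator related to PGC-1, fell from 9.65, 18.8 and 11.5 RPKM in Ctrl to 3.004, 5.10 and 6.33 RPKM in NICeCA libraries (log2 fold change -1.29, SE 0.28 and adjusted p = 0.034 by limma). Ppargc1b, the coactivator PGC-1 beta, fell from 1.70 ± 0.203 to 0.709 ± 0.0611 RPKM (log2 fold change -0.66, SE 0.14 and adjusted p = 0.031 by limma), and Polrmt, the mitochondrial RNA polymerase, from 7.70 ± 1.31 to 4.56 ± 0.637 RPKM (log2 fold change -0.64, SE 0.15 and adjusted p = 0.038 by limma). All 3 had separated groups. Nrf1, Gabpa, Esrra, Tfam, Tfb1m and Tfb2m were not called, with log2 fold changes between -0.06 and 0.14. Ppargc1a was at 0.0868 RPKM or less in each library and was not tested.

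Among genes of assembly, lipoylation and repair, 1 of 9 was called. D2hgdh, which clears the side product D-2-hydroxyglutarate by oxidising it to alpha-ketoglutarate, fell from 4.76, 4.54 and 4.15 RPKM to 3.01, 2.65 and 2.01 RPKM (log2 fold change -0.63, SE 0.14 and adjusted p = 0.035 by limma). The list median was 0.13. No gene of 12 tested for anaplerosis and export was called (median -0.02). The malic enzyme Me2 had the furthest value there (log2 fold change 0.42, limma adjusted p = 0.12). None of 6 cytosolic counterparts was called (median 0.19), with the aspartate transaminase Got1 at 0.54 (limma adjusted p = 0.079). Of 5 genes of acetyl-CoA and itaconate none was called (median 0.13). Acod1, listed as Irg1, which diverts cis-aconitate to itaconate in activated macrophages, was at 16.3, 24.0 and 41.9 RPKM in Ctrl and 30.2, 59.0 and 70.3 RPKM in NICeCA libraries (log2 fold change 0.95, limma adjusted p = 0.12).

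The calls of Pdk1, Pprc1, Polrmt, Ppargc1b and D2hgdh kept their direction in every alternative in which they were tested, and each was lost when NICeCA replicate 1 or NICeCA replicate 2 was left out. Over the whole table, 90 genes were then called higher and 14 lower without NICeCA replicate 1, and 17 and 1 without NICeCA replicate 2, against 725 and 946 with all libraries. All 5 were also lost without Ctrl replicate 2. Without Ctrl replicate 1, Pdk1, Polrmt and D2hgdh were no longer called, and without NICeCA replicate 3 the same 3 genes. All 5 calls were lost without a filter on low values and with an endothelial marker covariate. With the replicate block, only Pprc1 of the 5 was called, and under quantile normalization only Pdk1. After removal of the length trend, Pdk1 and Ppargc1b were called, and Pprc1, Polrmt and D2hgdh were not. In all, Pprc1 was called in 9 of 16 alternatives, Pdk1 in 8 of 16, Polrmt in 6 of 16, Ppargc1b in 8 of 15 and D2hgdh in 5 of 15.

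The level of the 9 enzymes as a whole varied from library to library across the groups. Of the 36 pairs of enzymes, 3 had a negative correlation over the 6 libraries, the lowest for Idh2 with Idh3a (Pearson r = -0.284), and the median r was 0.606, given as a description. Summed over the 9, RPKM was 206, 238 and 242 in Ctrl and 260, 214 and 227 in NICeCA libraries, with group means of 229 ± 20.02 and 234 ± 23.7 RPKM (SD, n = 3). NICeCA replicate 1 held the highest value of 5 enzymes, and Ctrl replicate 1 the lowest value of 6. The mean of the 9 standardised log2 values, a profile with mean 0 over the libraries, was -0.98, 0.14 and 0.62 in Ctrl and 1.11, -0.52 and -0.36 in NICeCA libraries. The 5 tested genes with the most similar profile over the 6 libraries were Eif3l (Pearson r = 0.997), a translation initiation factor subunit, Glt8d1 (0.981), Dbnl (0.978), the metal transporter gene Slc39a14 (0.977) and Slc25a1 (0.976), the mitochondrial citrate carrier. These correlations are a description over 6 libraries and carry no test.

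The 3 libraries with the highest mean of endothelial markers had the 3 lowest enzyme profiles. In log2(RPKM + 1), that mean was 5.19, 3.92 and 4.27 in Ctrl replicates 1 to 3 and 4.90, 5.33 and 5.25 in NICeCA replicates 1 to 3. Macrophage markers averaged 7.99, 7.54 and 7.67 in Ctrl and 8.14, 7.89 and 7.43 in NICeCA libraries, highest in the library with the highest enzyme profile and next highest in the one with the lowest. The part of cell composition in the enzyme values was not tested. With the endothelial mean as a covariate, 0 of the 12320 tested genes were called by limma in either direction, so the absence of a call among the enzymes says nothing about them. The log2 fold changes of 8 enzymes were then positive, up to 0.38 for Mdh2, with Ogdh at -0.11.

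**Figure D3:**
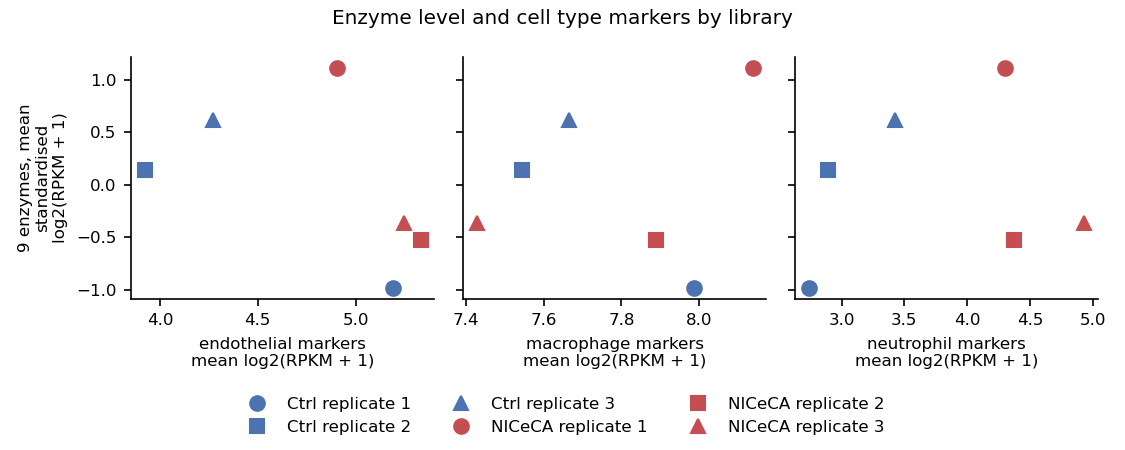
Mean standardised log2(RPKM + 1) of the 9 enzymes in each library (vertical axis) against the mean log2(RPKM + 1) of endothelial, macrophage and neutrophil markers (horizontal axes), for Ctrl (blue) and NICeCA (red) replicates. The 3 libraries with endothelial means of 5.19 to 5.33 have enzyme profiles of -0.98 to -0.36, below the other 3.

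Ratios between enzymes within a library do not depend on how libraries are scaled. Of the 36 pairs among the 9 enzymes, 14 had ratios whose Ctrl and NICeCA values did not overlap, near the share over all pairs of tested genes (40.8%), so this count is no result about the enzymes. Of these 14 pairs, 7 involved Ogdh and 5 involved Idh3b. The ratios of a gene all share its own values, so they are not separate observations. No share per gene over all tested genes is given here, so these counts are no result either. The examples that follow were chosen after their values were seen and carry no test. The ratio of Ogdh to Dlst, components of the same complex, was 0.479, 0.458 and 0.455 in Ctrl and 0.390, 0.401 and 0.383 in NICeCA libraries. The ratio of Idh3b to Suclg1 was 1.91, 1.91 and 1.88 in Ctrl and 2.14, 2.17 and 2.12 in NICeCA libraries. In both, the distance between the groups was several times the spread within them. After removal of the trend with gene length, the log2 fold changes of Ogdh and Dlst were 0.07 and 0.10, close to each other. Those of Idh3b and Suclg1 were then 0.10 and -0.09, and the part of gene length in these ratios was not tested. Idh2 stood to Idh3b at 0.919, 1.16 and 0.935 in Ctrl and 0.864, 0.672 and 0.863 in NICeCA libraries, a closer separation.

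**Figure D4:**
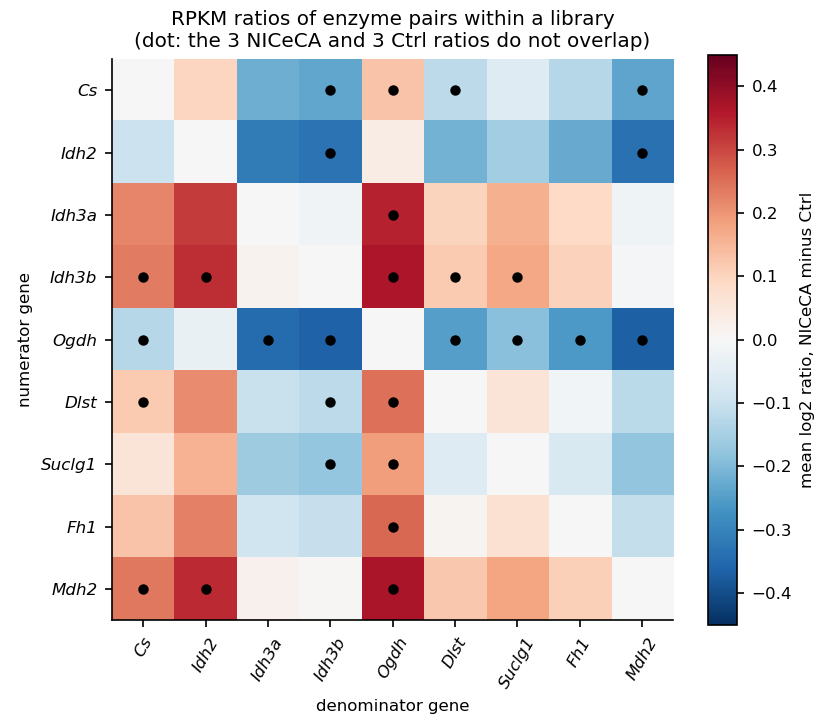
Difference between NICeCA and Ctrl in the mean log2 ratio of RPKM for each pair of enzymes within a library (color, red where the row gene is relatively higher in NICeCA); a dot marks a pair whose 3 NICeCA and 3 Ctrl ratios do not overlap. Dots mark 14 of the 36 pairs, near the share over all pairs of tested genes (40.8%). The mean ratios of Ogdh to the other 8 enzymes, 7 of them dotted, are lower in NICeCA libraries, but all share the values of Ogdh.

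The difference in Ogdh was not called, and the part of gene length in it was not tested. At 6984 bases its gene model is the longest of the 9, the others having 1282 (Mdh2) to 2828 bases (Cs). Long genes were lower in NICeCA libraries: the trend of the log2 fold change with length was -0.25 at the length of Ogdh and 0.10 at that of Mdh2. After removal of this trend from each library, the log2 fold change of Ogdh was 0.07 (limma adjusted p = 0.69) and that of Mdh2 0.07 (0.72). Sdhd and Mpc2 also have short gene models (1285 and 854 bases). The log2 fold change of Mpc2 after the removal was 0.29 (limma adjusted p = 0.13). FANTOM3 transcript models inside Ogdh gave unlike pictures. A model of 779 bases over its 5′ end (6291641 to 6297677) had 20.3, 16.8 and 28.8 RPKM in Ctrl and 23.1, 22.5 and 21.6 RPKM in NICeCA libraries, whereas one of 3543 bases in its interior (6333636 to 6337178) had 2.93, 2.92 and 3.27 RPKM against 2.62, 2.43 and 2.12 RPKM.

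**Figure D5:**
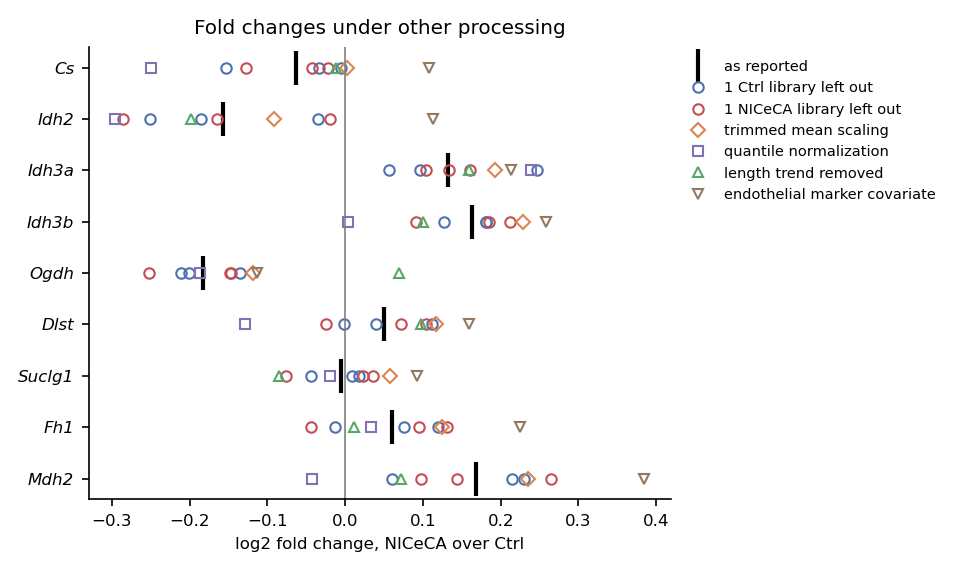
Log2 fold change of each enzyme between NICeCA and Ctrl as reported (black bar), with 1 Ctrl (blue) or 1 NICeCA (red) library left out, and under trimmed mean scaling, quantile normalization, removal of the length trend and an endothelial marker covariate. All values lie between -0.30 and 0.38, and those of 7 enzymes fall on both sides of 0.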

How the data were processed

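RNA from CD31-selected TECs of 3 Ctrl and 3 NICeCA mice was depleted of ribosomal RNA and sequenced. The authors deposited RPKM values for 23473 RefSeq and 33353 FANTOM3 rows. TopHat2 and mm9 are named in the submitters' processing notes, whereas deposited positions match GRCm38. The counting tool is not given in the sources used. Whole reads were recovered from the RPKM steps (100% within 0.05 of a whole number, below 1000 reads) and gave the depth, 27793301 to 30769916 reads on RefSeq rows.

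RefSeq rows with a mean of at least 1 RPKM (12320) were tested on log2(RPKM + 1) with limma (version 3.58.1, R 4.3.3, empirical Bayes with a mean-variance trend, 2-sided, Benjamini-Hochberg adjustment). On simulated data, the script called 59.6% of true log2 changes of 1 and 100% of those of 2, with 6 false calls. The spread there was a setting and not that of the enzymes. A gene was called at an adjusted p under 0.05. Transcripts were compared with blastn 2.17.0, which found no other transcript at least 95% identical to an enzyme's over 150 bases. The enzymes and gene lists were chosen with earlier results of these data known. Named were all 9 enzymes, 8 other cycle genes, the called genes of each wider list (or its largest change) and the 5 genes most like the enzyme profile. Others, such as unchanged regulators, markers and Notch targets, were named after their values were seen. A planned result is not reported here. There were 16 alternatives, covering left-out libraries, a replicate block, scaling, filter, pseudocount, variance trend, voom on recovered reads, length trend and an endothelial covariate.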

Additional observations from a re-analysis of the deposited data

How the results depend on the processing

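None of the 9 enzymes was called in any of the 16 alternatives (lowest limma adjusted p 0.18), 1 of which, the covariate, called no gene at all, and their median log2 fold change ran from -0.04 to 0.16. Leaving out 1 library at a time gave 0 to 1 calls in pyruvate entry, 0 to 1 in assembly, lipoylation and repair, 0 to 3 among biogenesis regulators and 1 to 2 enzymes with separated groups. The same omissions gave log2 fold changes of -0.025 to 0.11 for Dlst, -0.044 to 0.13 for Fh1 and -0.077 to 0.036 for Suclg1. Signs also turned under trimmed mean scaling (Cs 0.0026, Suclg1 0.058), quantile normalization (Dlst -0.13, Mdh2 -0.043), removal of the length trend (Ogdh 0.070) and the endothelial covariate (Cs 0.11, Idh2 0.11, Suclg1 0.093). No enzyme had separated groups after quantile normalization or removal of the length trend (0 each).

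Pyruvate entry had 0 calls without a filter, with the covariate and with the replicate block, and 1 under quantile normalization, a pseudocount of 0.1, no variance trend, voom and removal of the length trend. Assembly, lipoylation and repair had 2 calls under trimmed mean scaling and 0 with the replicate block, quantile normalization, no filter, a filter at 5 RPKM, removal of the length trend and the covariate. Biogenesis regulators had 0 under quantile normalization, no filter and the covariate, and 1 with the replicate block and after removal of the length trend. Acetyl-CoA and itaconate had 1 with the block. The causes were not tested.

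The replicate numbers were not taken as pairs, since no label ties them to pairs of mice. The correlations between the deviations of same-numbered libraries were 0.122, -0.343 and -0.178. Those of libraries with unlike numbers ran from -0.319 to 0.438. With 3 libraries a group, such values cannot decide which libraries are pairs. With the replicate block, 327 genes of the whole table were called higher and 209 lower, against 725 and 946 without it. These counts were 985 and 712 under trimmed mean scaling, 446 and 325 under quantile normalization, 590 and 206 after removal of the length trend, 42 and 9 without a filter, 0 and 0 with the covariate, 17 and 1 without NICeCA replicate 2, 90 and 14 without NICeCA replicate 1, and 244 and 135 without Ctrl replicate 2. Counting error was at most 4.27% of an enzyme's value, and the highest library exceeded the lowest by 1.18-fold to 1.62-fold. The part of depth in the spread between libraries was not tested.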
